A study of Mus musculus with 112 samples.

Results

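A set of 9 genes of retinoid uptake, binding, oxidation, clearance and signalling was followed through mouse skin carcinogenesis, out of 18772 genes measured on the same arrays. They were taken by symbol through the array's annotation: Stra6 (probe set 10585803), Crabp1 (10585438), Crabp2 (10493108), Adh7 (10496425), Dhrs9 (10472538), Aldh1a3 (10564417), Aox4 (10346448), Cyp26b1 (10545771) and Rarg (10432972). Each of the 9 had a single probe set, and no member was lost to a filter.

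Retinol circulates bound to a carrier and enters cells through the membrane receptor STRA6. Inside the cell, alcohol dehydrogenases such as ADH7 and short-chain dehydrogenases such as DHRS9 oxidise it to retinaldehyde, and ALDH1A3 makes retinoic acid from that aldehyde. Retinoic acid is held by the cellular binding proteins CRABP1 and CRABP2, acts on nuclear receptors such as RARG, the main retinoic acid receptor of the epidermis, and is broken down by CYP26 enzymes such as CYP26B1. The aldehyde oxidase AOX4 is an enzyme of skin and its glands that can oxidise retinaldehyde. In skin, retinoids are known for their effects on keratinocyte differentiation.

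The samples came from 15 male mice of a backcross (Spretus x FVB F1 animals bred to FVB), of which 9 were wild type (WT) and 6 were labelled HrasKO. Every mouse received the mutagen DMBA once at 8 weeks and the tumour promoter TPA repeatedly thereafter, and every mouse had metastatic disease at sacrifice, so the 15 dorsal skins are those of treated, tumour-bearing animals. Besides skin there were 27 papillomas of 13 mice, 10 squamous cell carcinomas (SCC) of 8 mice, 12 spindle carcinomas of 10 mice, 24 SCC metastases of 11 mice and 20 spindle metastases of 7 mice. Papillomas are benign outgrowths, SCC keep keratinocyte features, and spindle carcinomas are poorly differentiated tumours of elongated cells. Among these groups, both genotypes were present except in SCC carcinoma, where 8 of 8 mice were WT. The labels do not say in which cells Hras was deleted, and the meaning of the title word RegCA carried by some carcinomas is not given in the sources used here. Metastases came mostly from lymph nodes (24 arrays) and lung (9 arrays, mixed histology aside).

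Values are log2 intensities, so that a difference of 1 is a doubling of signal, and levels were compared within a gene, not between genes. The mouse was the replicate, and a gene is said to rise or fall where limma's adjusted p was under 0.05. As a check of the labels, the mean log2 level of 9 keratinocyte markers lay at 11.16 to 11.84 in SCC carcinoma but at 6.30 to 11.64 in spindle carcinoma and 5.52 to 7.78 in spindle metastasis. It was also low in some mice of the squamous groups, ranging from 7.07 to 11.92 in papilloma and from 6.58 to 11.54 in SCC metastasis. A total of 15 arrays correlated best with a class other than their labelled one: 4 papillomas and 8 SCC metastases with spindle tumours, 2 papillomas with skin, and 1 spindle carcinoma with squamous tumours. All are bulk tissue, in which fewer cells of a type and less RNA per cell cannot be told apart.

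The members moved in different directions at successive stages. In papilloma, 4 of 9 rose and 1 fell against skin of the same 13 mice, where 42.6% of all genes passed. From papilloma to SCC carcinoma (8 mice), 0 rose and 2 fell, Adh7 and Aox4, where 0.202% of all genes passed. From papilloma to spindle carcinoma (9 mice), 2 rose and 5 fell, against 23.8% of all genes. These comparisons share papilloma and skin samples and are not independent of each other. The median log2 change of the 9 was 1.32, -0.17 and -1.25 in these comparisons, and that of all genes was 0.05, 0.00 and 0.03.

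Against skin directly, 4 members rose and 3 fell in SCC carcinoma (8 mice, 30.6% of all genes called), and 1 rose and 3 fell in spindle carcinoma (10 mice, 46.7% of all genes called). Between the carcinoma types of WT mice, 0 members were higher and 2 were lower in spindle than in SCC carcinoma, with 7.56% of all genes called. In SCC metastasis, 1 rose and 4 fell against SCC carcinoma of the same 8 mice, with 4.55% of all genes called. None passed in spindle metastasis against spindle carcinoma (7 mice), where limma called 0% of all genes and 2495 had an unadjusted p under 0.05.

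**Figure D1:**
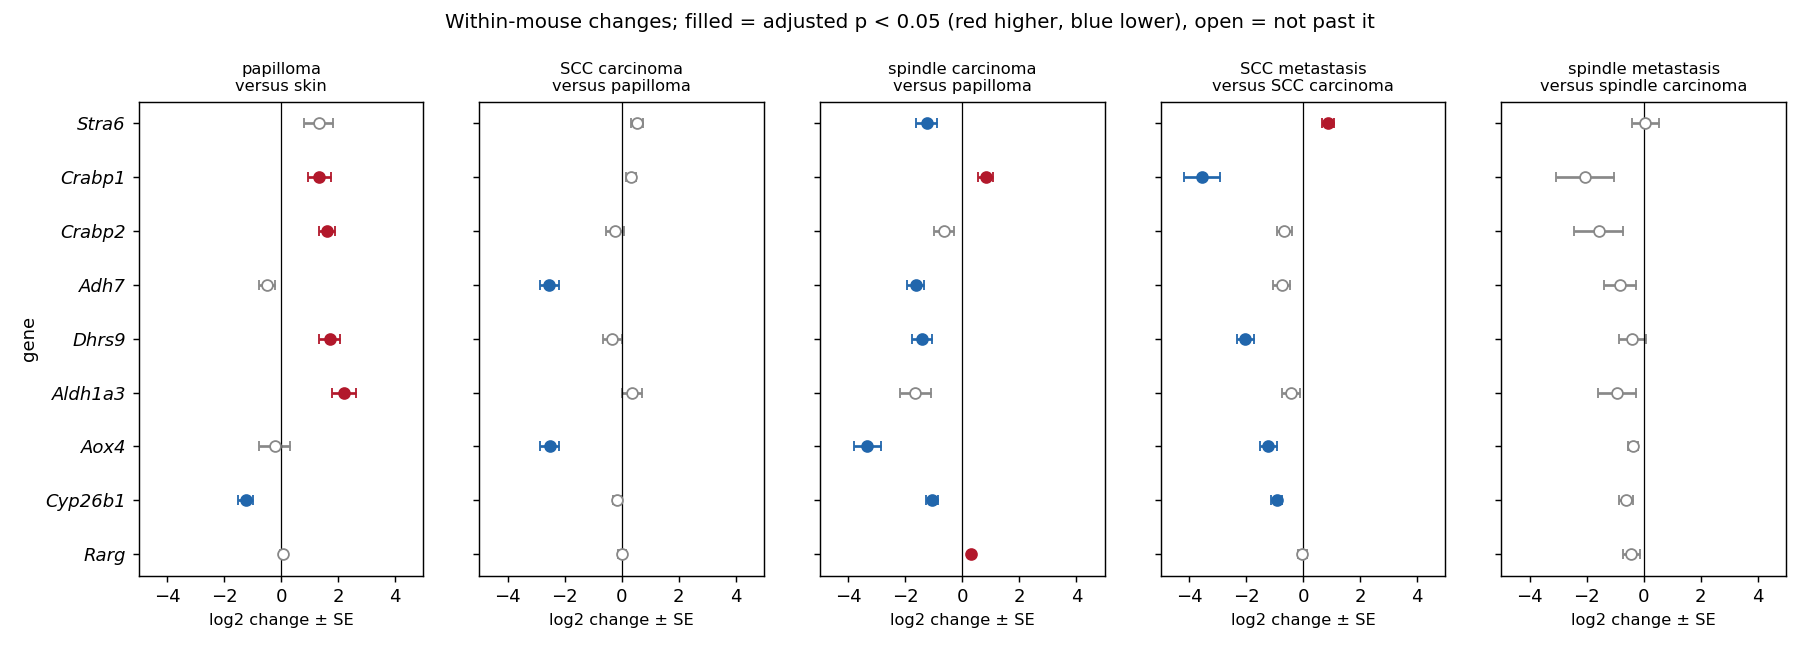
Within-mouse log2 change (x axis, ± SE from limma) of the 9 retinoid genes (y axis) in 5 comparisons of the same mice; filled points passed an adjusted p of 0.05 and open points did not. Adh7 and Aox4 are the only filled points in the SCC carcinoma panel, at -2.54 and -2.53, and no point is filled in the spindle metastasis panel.

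Stra6, the receptor for retinol uptake, was high in squamous tumours and variable in spindle ones. Its lowest, median and highest mouse levels were 6.84, 8.71 and 10.495 in skin and 6.81, 10.26 and 11.07 in papilloma. They were 10.09, 10.504 and 11.56 in SCC carcinoma, the narrowest range of the 6 groups. In spindle carcinoma they were 5.34, 8.88 and 11.30, with mouse 1949 highest and mouse 1984 lowest. In SCC metastasis they were 8.01, 11.45 and 11.91, and in spindle metastasis 5.52, 8.38 and 9.81.

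In papilloma Stra6 was higher than in skin in 10 of 13 mice by 1.32 ± 0.52 (log2, SE), which did not pass (adjusted p = 0.0533). It did pass without mouse 1815 (change 1.71, adjusted p = 0.00304), whose papillomas held the group's lowest Stra6, and without mouse 1984 (change 1.58, adjusted p = 0.0205). It also passed without the mouse block (adjusted p = 0.0147), with a filter on low values (adjusted p = 0.0424) and without arrays that stood apart (change 1.92, adjusted p = 0.000534). In SCC carcinoma it rose 3.91-fold against skin, by 1.97 ± 0.42 in 8 of 8 mice (adjusted p = 0.00692). Against papilloma it was higher by 0.53 ± 0.22 in 7 of 8 mice (adjusted p = 0.49). In spindle carcinoma it fell by 1.25 ± 0.37 against papilloma, in 8 of 9 mice (adjusted p = 0.0349), while the difference from skin was -0.65 ± 0.83 (adjusted p = 0.545). The fall from papilloma no longer passed without any 1 of mice 1383, 1407, 1508, 1509, 1664 or 1984, in batch 1 alone, without the mouse block or without RegCA carcinomas (5 of 9 mice left). All 9 measured keratinocyte markers fell in the same comparison (median log2 change -2.63), and their part in the fall was not tested.

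From SCC carcinoma to SCC metastasis Stra6 rose by 0.87 ± 0.20, in 7 of 8 mice (adjusted p = 0.0436). That test rests on 8 WT mice. Of their 18 metastasis arrays, 8 exceeded every SCC carcinoma array and none lay below all of them. Of the 6 SCC metastasis arrays of the 3 HrasKO mice, which had no SCC carcinoma, 5 lay below every SCC carcinoma array and 0 exceeded them. This call was lost without any 1 of mice 1383, 1456, 1508, 1949, 1984 or 2104, in batch 1 alone, in lymph nodes alone and without arrays that stood apart, over which the change stayed between 0.76 and 1.01. In spindle tumours the change was 0.05, with a 95% confidence interval of -1.03 to 1.14. The difference of spindle from SCC metastases, -2.48 ± 0.62, did not pass over all sites (7 and 11 mice, adjusted p = 0.0692). In lymph nodes alone the difference was -3.54 and passed (14 mice, adjusted p = 0.00707).

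Crabp1, which binds retinoic acid in the cytosol, rose in papilloma and spindle carcinoma and was low in most SCC metastases. Mouse levels were 7.72, 10.73 and 12.72 (lowest, median, highest) in skin, 10.84, 11.82 and 12.30 in papilloma, 10.15, 12.20 and 12.93 in SCC carcinoma, and 11.29, 12.81 and 12.95 in spindle carcinoma. In SCC metastasis they were 5.66, 7.96 and 11.78, and in spindle metastasis 5.21, 11.87 and 12.92. The lowest SCC carcinoma, that of mouse 1984, lay below the skin median, and both metastasis groups spread over more than 6 log2 units.

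Crabp1 rose 2.55-fold from skin to papilloma, by 1.35 ± 0.41 in 10 of 13 mice (adjusted p = 0.0152). From papilloma to spindle carcinoma it rose by a further 0.82 ± 0.26, in 8 of 9 mice (adjusted p = 0.0438), a call lost without any 1 of 7 mice (1383, 1407, 1508, 1509, 1664, 1984 or 2022), in batch 1 alone or without RegCA carcinomas. Spindle carcinoma was above skin by 2.26 ± 0.41 in 10 of 10 mice (adjusted p = 0.000953), whereas the difference of 1.40 ± 0.52 between SCC carcinoma and skin did not pass (adjusted p = 0.0687).

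From SCC carcinoma to SCC metastasis Crabp1 fell 11.6-fold, a log2 change of -3.54 ± 0.64, in 8 of 8 mice (adjusted p = 0.0193). Without mouse 1456 (the same fit as batch 1 alone), without mouse 1984 or in lymph nodes alone it no longer passed (in lymph nodes, -3.35, 6 mice, adjusted p = 0.111). Leaving out 1 mouse at a time kept the change between -4.00 and -3.12. Of 24 SCC metastasis arrays, 17 lay below the lowest of 10 SCC carcinoma arrays (10.15). In 13 of these 17 the keratinocyte marker mean was 11.20 to 11.70, within the 10.92 to 11.84 of SCC carcinoma, and in the other 4 (1 lung and 1 liver array, and both low lymph nodes of mouse 1706) it was 6.22 to 10.18. The 3 metastases of mouse 1456, for example, had Crabp1 at 5.88 (lymph node), 5.87 (lung) and 5.23 (thymus) with Krt5, a basal keratin, at 12.58, 12.76 and 12.84. The carcinoma of that mouse had Crabp1 at 12.13 and Krt5 at 12.85. Fibroblast markers (8 genes) averaged 8.40 to 10.65 in the 17 arrays and 7.83 to 11.26 in SCC carcinoma. Lung markers averaged 4.07 to 10.72 in the 17 arrays and 4.03 to 4.63 in SCC carcinoma. Of 7 macrophage markers, 2 rose from SCC carcinoma to SCC metastasis (median 1.16), with mouse means of 9.65 to 10.99 in metastasis and 7.82 to 10.52 in carcinoma. The part of these cells in the fall of Crabp1 was not tested.

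Among spindle metastases, low Crabp1 was found only outside lymph nodes. All 11 lymph node metastases lay at 11.61 to 12.93, within the 11.29 to 13.06 of spindle carcinomas, and 6 of the other 9 lay below. The low ones were the lung arrays of mice 1509 (5.21) and 1537 (7.56), the liver (5.62), spleen (5.22) and kidney (6.41) arrays of mouse 1815, and the spleen array of mouse 1407 (10.77). The 3 that were not low were the spleen of mouse 1949 (12.456) and the liver (12.454) and thymus (12.576) of mouse 1664, so that liver and spleen held both low and high arrays and 3 of the 6 low ones came from 1 mouse. Lung markers averaged 6.79 and 11.004 in the lung arrays of mice 1509 and 1537 and at most 4.44 in the other spindle metastases. Liver markers averaged 11.22 in the liver array of mouse 1815 and 10.59 in that of mouse 1664, and the part of these tissues in the low values was not tested.

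Over all sites the change from spindle carcinoma was -2.07 ± 1.02 (7 mice, adjusted p = 0.419), and in lymph nodes alone it was 0.01 (adjusted p = 0.992). The spindle change minus the SCC change was 1.24 ± 1.20 (adjusted p = 0.784), so a difference between the histologies was not shown over all sites, in a test added after the data were seen in which 0% of all genes passed. In lymph nodes alone, spindle metastases had more Crabp1 than SCC metastases by 3.73 (14 mice, adjusted p = 0.00896). Over all sites that difference was 2.07 ± 1.17 (adjusted p = 0.367), where 0.0693% of all genes and 0 members passed.

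**Figure D2:**
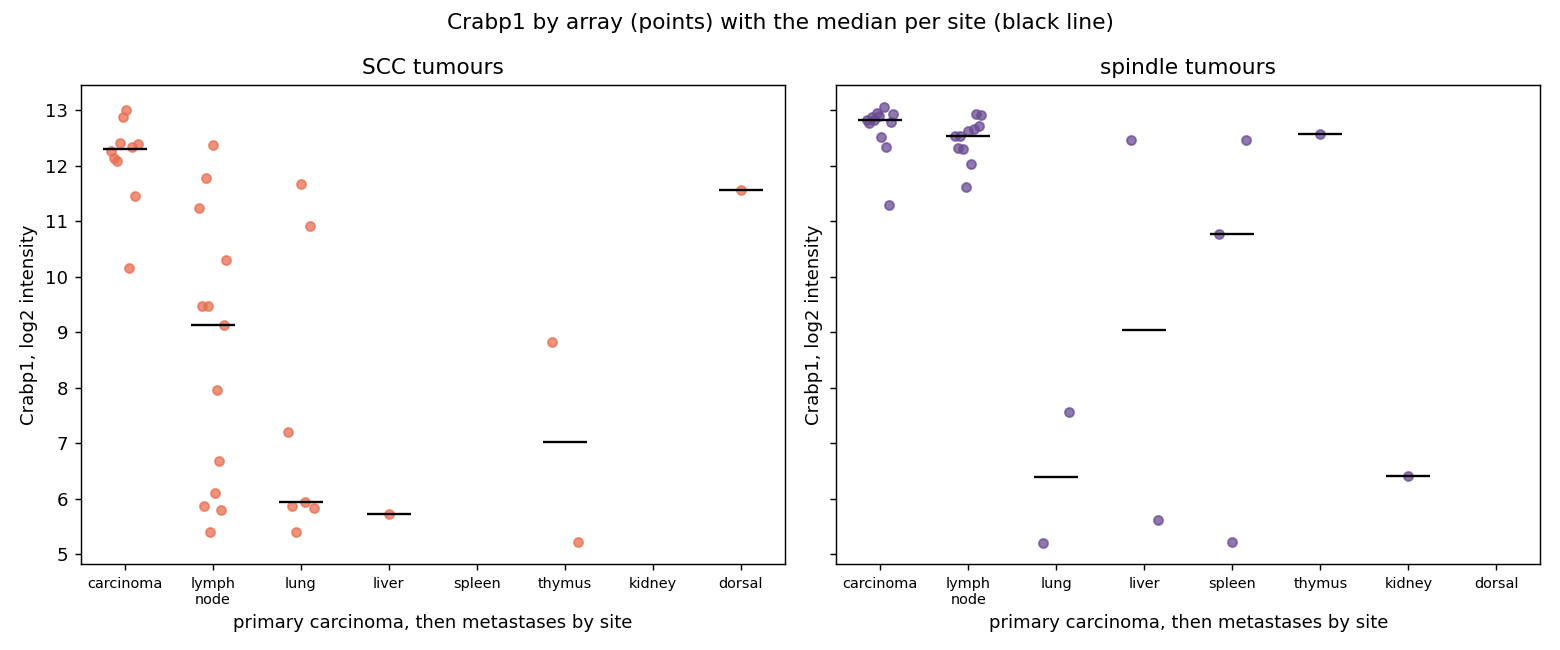
Crabp1 log2 intensity (y axis) by array in primary carcinomas and in metastases by site (x axis), for SCC (left) and spindle (right) tumours; points are arrays and black lines medians. The 11 spindle lymph node metastases sit between 11.61 and 12.93, and the 13 SCC lymph node metastases between 5.40 and 12.38.

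Lung and lymph node metastases of the same 8 mice were compared with histology in the model. By unadjusted levels Crabp1 was lower in lung in 8 of 8 mice, with differences from -7.09 to -0.006. In mice 1664, 1949 and 1984, however, the lymph node arrays were spindle and the lung array SCC. With histology in the model the log2 difference of Crabp1 was -2.72 ± 1.01 and did not pass (adjusted p = 0.733). None of the 9 members passed, where limma called 0% of all genes and 1155 had an unadjusted p under 0.05. The 8 lung markers averaged 4.34 to 11.004 in the 9 lung arrays and 4.04 to 4.66 in the 24 lymph node arrays, and their part in the difference was not tested.

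Crabp2, the partner that carries retinoic acid to its receptors, rose early and then changed less. Its levels were 8.37, 10.19 and 10.93 in skin, 9.68, 11.77 and 12.09 in papilloma, 10.74, 11.21 and 11.69 in SCC carcinoma and 9.15, 10.48 and 11.76 in spindle carcinoma. It rose 3.08-fold in papilloma, by 1.62 ± 0.28 in 12 of 13 mice (adjusted p = 0.000339), the exception being mouse 1984. A papilloma array of that mouse read 5.77, and it was among those closest to spindle tumours. In SCC carcinoma it was 1.40 ± 0.25 above skin in 8 of 8 mice (adjusted p = 0.00314). The skins and carcinomas of these 8 mice did not overlap. The skins of mice 1537 (10.93) and 1815 (10.76), which had no SCC carcinoma, lay above the lowest carcinoma (10.74). In spindle carcinoma Crabp2 did not pass against skin (0.51 ± 0.22, adjusted p = 0.0804) or papilloma (-0.66 ± 0.35, adjusted p = 0.209).

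In metastases Crabp2 ranged from 7.65 to 11.59 (SCC) and from 4.80 to 11.56 (spindle) by mouse. Neither change from carcinoma passed, at -0.66 ± 0.26 for SCC (adjusted p = 0.171) and -1.57 ± 0.86 for spindle (adjusted p = 0.455). The arrays with the least Crabp2 were also low in Crabp1: the lung of mouse 1616 (Crabp2 4.47, Crabp1 5.40), the lung of mouse 1509 (4.80 and 5.21), and the spleen (5.13 and 5.22) and liver (5.64 and 5.62) of mouse 1815. The reverse did not hold in mouse 1456, whose thymus metastasis had 11.79 for Crabp2 with 5.23 for Crabp1.

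Adh7, which oxidises retinol in surface epithelia, stayed near its skin level in papilloma and dropped in carcinoma. It read 8.62, 10.43 and 10.93 in skin and 7.52, 9.63 and 11.48 in papilloma, a change of -0.50 ± 0.28 that did not pass (adjusted p = 0.172). In SCC carcinoma it read 5.89, 6.19 and 8.80, with mouse 1949 highest. Against papilloma it fell 5.82-fold, a log2 change of -2.54 ± 0.32, in 8 of 8 mice (adjusted p = 0.0338). The change against skin was -3.31 ± 0.30 (8 of 8 mice, adjusted p = 0.000126). The skins and carcinomas of these 8 mice did not overlap. The skin of mouse 1706 (8.62), which had no SCC carcinoma, lay below the highest carcinoma (8.80).

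In spindle carcinoma Adh7 read 6.57, 8.07 and 9.54, which fell by 1.64 ± 0.30 from papilloma (8 of 9 mice, adjusted p = 0.00903) and by 1.96 ± 0.25 from skin (10 of 10 mice, adjusted p = 0.00011). Its median was thus higher in spindle than in SCC carcinoma, and among WT mice the difference was 1.14 ± 0.47 (adjusted p = 0.15). Metastases read 5.16, 5.93 and 7.16 (SCC) and 5.61, 7.07 and 8.74 (spindle). They differed by 1.06 ± 0.35 over all sites (adjusted p = 0.129) and by 1.68 in lymph nodes alone, where spindle metastases were higher (adjusted p = 0.00707). Neither change from carcinoma to metastasis passed (SCC -0.74 ± 0.30, adjusted p = 0.18; spindle -0.84 ± 0.55, adjusted p = 0.523).

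Aox4, an aldehyde oxidase, fell from papilloma to both carcinoma types. It read 4.46, 9.37 and 10.21 in skin, where mice 2022 (4.46), 1383 (5.68) and 1706 (5.82) were lowest, and 4.17, 8.50 and 9.66 in papilloma, where mouse 1815 was lowest. In SCC carcinoma it read 4.38, 5.32 and 7.20, having fallen 5.78-fold from papilloma (-2.53 ± 0.34 in 8 of 8 mice, adjusted p = 0.0377). In spindle carcinoma it read 4.27, 4.44 and 5.86, a 10.1-fold fall (-3.34 ± 0.48 in 8 of 9 mice, adjusted p = 0.00626). Among WT mice, spindle minus SCC carcinoma was -1.05 ± 0.36 and did not pass (adjusted p = 0.0908). The exception among the 9, mouse 1815, had papillomas that were already at 4.27 and 4.07. In metastases it lay between 4.07 and 4.49 (SCC) and between 4.10 and 4.82 (spindle), close to the bottom of its range in every mouse, and spindle minus SCC metastasis was 0.07 ± 0.10 (adjusted p = 0.748). The further fall from SCC carcinoma to SCC metastasis was 1.23 ± 0.29, in 7 of 8 mice (adjusted p = 0.0483).

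The calls for Adh7 and Aox4 between papilloma and SCC carcinoma rest on most of the 8 mice. Both were lost in batch 1 alone (0 genes called), that of Adh7 without any 1 of mice 1383, 1456, 1984, 2022 or 2104, and that of Aox4 without any 1 of mice 1383, 1456, 1717, 1949, 2022 or 2104. The changes stayed between -2.79 and -2.37 (Adh7) and between -2.77 and -2.34 (Aox4). The spindle falls of both kept their call without each mouse in turn. These calls were lost only without RegCA carcinomas, where 5 of 9 mice were left and 0 genes were called. The Aox4 fall in SCC metastasis was lost without any 1 of 7 mice (all but 1717), in batch 1 alone, in lymph nodes alone and without arrays that stood apart. Beside these falls, 6 differentiated keratinocyte markers averaged 10.07 in papilloma, 8.79 in SCC carcinoma and 6.04 in spindle carcinoma. None of the 6 passed between papilloma and SCC carcinoma (median -1.80) and all 6 fell in spindle carcinoma (median -3.85). Their part in the falls of Adh7 and Aox4 was not tested.

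**Figure D3:**
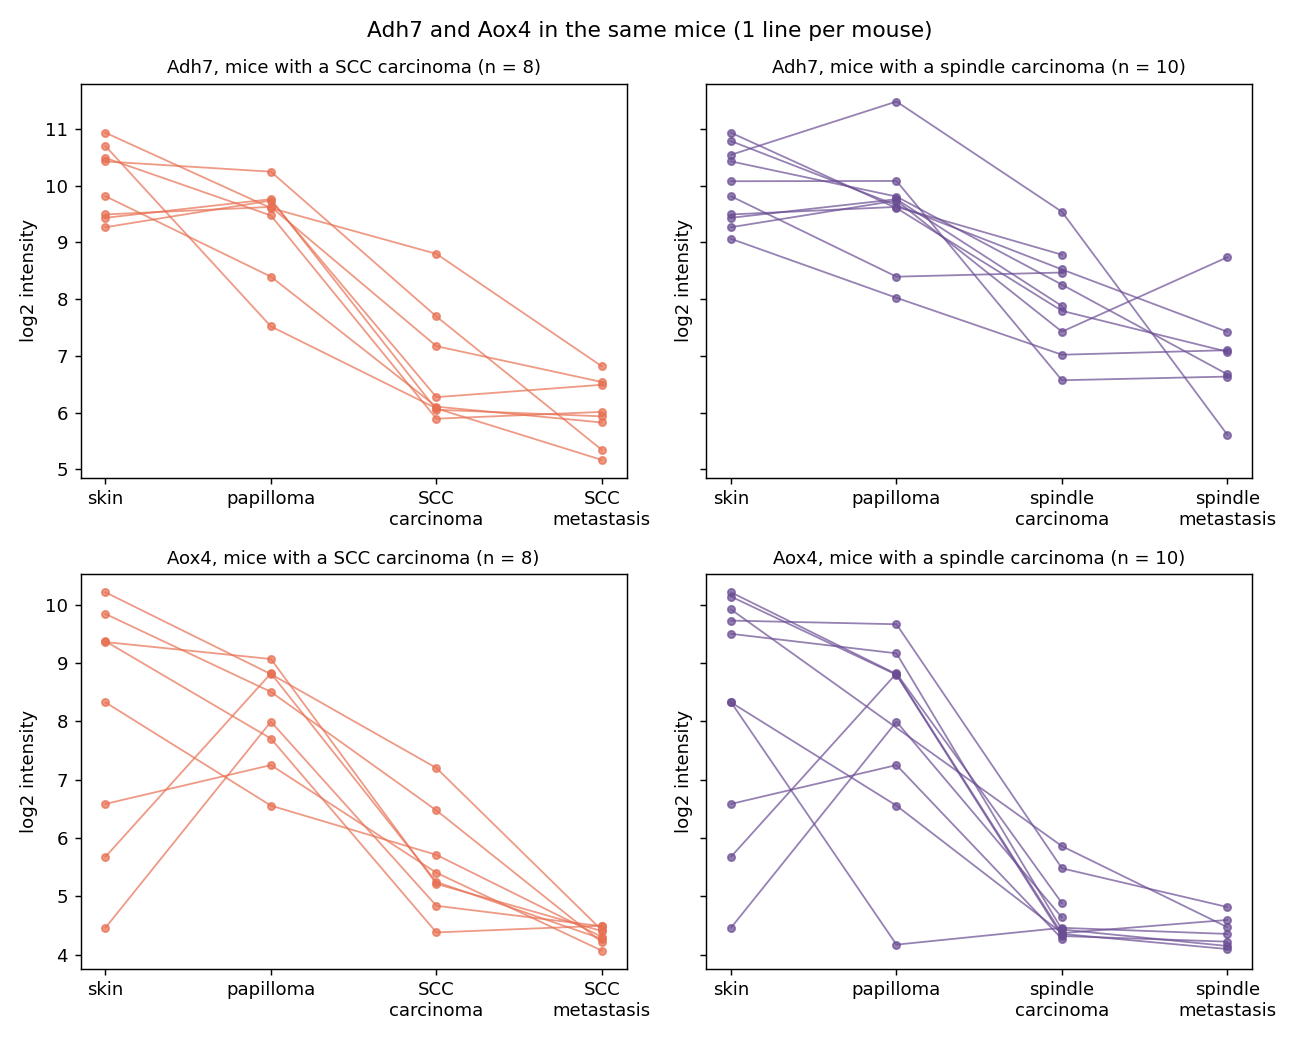
Adh7 (top) and Aox4 (bottom) log2 intensity (y axis) by tissue (x axis) in the 8 mice with an SCC carcinoma (left) and the 10 with a spindle carcinoma (right), 1 line per mouse; where a mouse had no papilloma or metastasis of the type, its remaining points are joined. Every SCC line drops from papilloma to carcinoma, and Aox4 ends between 4.07 and 4.82 in all metastases shown.

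The promoters of the members are shown for the pair that fell together and for Dhrs9. Of the 7 members searched, these 3 had a match to the AP-1 motif TGANTCA, the element through which TPA is known to act. RefSeq windows (GRCm38.p6) were found for 7 of 9 members, 11 windows in all, and the 250 bases before each start were searched on both strands. Crabp2 and Aldh1a3 had no window and were not searched. The sequences run 5′ to 3′ on the plus strand with the AP-1 match in capitals: Adh7 at chr3:138217523-138217772, Aox4 at chr1:58210147-58210396 and Dhrs9 at chr2:69380212-69380461.
Adh7: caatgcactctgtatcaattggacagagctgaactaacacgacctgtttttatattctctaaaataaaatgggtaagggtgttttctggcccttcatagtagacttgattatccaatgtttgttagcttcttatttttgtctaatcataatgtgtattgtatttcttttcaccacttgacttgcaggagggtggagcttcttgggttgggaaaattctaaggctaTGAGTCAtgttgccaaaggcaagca
Aox4: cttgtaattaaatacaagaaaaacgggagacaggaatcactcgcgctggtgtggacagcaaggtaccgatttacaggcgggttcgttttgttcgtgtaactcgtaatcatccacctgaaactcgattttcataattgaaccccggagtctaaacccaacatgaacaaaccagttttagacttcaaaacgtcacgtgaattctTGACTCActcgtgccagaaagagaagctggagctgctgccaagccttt
Dhrs9: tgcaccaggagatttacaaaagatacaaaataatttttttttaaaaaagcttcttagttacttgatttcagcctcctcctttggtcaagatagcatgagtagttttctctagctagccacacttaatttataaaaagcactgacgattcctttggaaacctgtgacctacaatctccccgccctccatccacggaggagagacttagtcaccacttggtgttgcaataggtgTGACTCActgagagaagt

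The matches begin 25 (Adh7), 48 (Aox4) and 18 (Dhrs9) bases before the start. An AP-1 match occurred in 3 of the 11 member windows and in 6.75% of 32851 windows of the same length. Direct repeats to which retinoic acid receptors are known to bind were searched as a pair of GNTCA with any 6, 3 or 2 bases between them. These letters occurred in 0 of the 11 member windows and in 0.776%, 0.889% and 1.01% of all windows. The 3 genes did not move alike, since Dhrs9 rose in papilloma, where Adh7 and Aox4 did not pass.

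Dhrs9, a short-chain dehydrogenase that acts on retinol, rose in papilloma, stayed high in SCC carcinoma and fell in SCC metastasis. It read 7.08, 8.51 and 9.58 in skin, 7.86, 10.43 and 11.06 in papilloma and 9.14, 10.36 and 11.13 in SCC carcinoma. The rise in papilloma was 1.71 ± 0.36, in 12 of 13 mice (adjusted p = 0.00171), and SCC carcinoma was above skin by 2.02 ± 0.29 in 8 of 8 mice (adjusted p = 0.00111). Between papilloma and SCC carcinoma the difference was -0.33 ± 0.34 (adjusted p = 0.86). Spindle carcinoma read 7.51, 8.25 and 10.54 and had fallen by 1.40 ± 0.35 from papilloma, in 7 of 9 mice (adjusted p = 0.0206), a call lost without mouse 1383, 1509 or 1664, in batch 1 alone or without RegCA carcinomas.

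In SCC metastasis Dhrs9 read 7.39, 7.97 and 9.52, a fall of 2.02 ± 0.29 or 4.07-fold in 8 of 8 mice (adjusted p = 0.0109). It was the fall that withstood leaving out each mouse in turn (-2.21 to -1.82), and it did not pass in lymph nodes alone or without the arrays that stood apart. Of 24 SCC metastasis arrays, 19 lay below the lowest SCC carcinoma array (8.68). In spindle metastasis it read 6.54, 7.90 and 9.87, with a change of -0.39 ± 0.46 from spindle carcinoma (adjusted p = 0.724). The spindle change minus the SCC change was 1.52 ± 0.56 and did not pass (adjusted p = 0.342). Among differentiated keratinocyte markers 4 of 6 fell in the same SCC comparison (median -4.07), and their part in the Dhrs9 fall was not tested.

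Aldh1a3, which makes retinoic acid, was higher in papilloma and SCC carcinoma than in skin. It read 6.25, 7.28 and 8.73 in skin, 6.09, 9.99 and 10.94 in papilloma and 9.60, 10.33 and 11.11 in SCC carcinoma. The papillomas of mouse 1815, at 6.09, lay below the lowest skin. It rose 4.64-fold in papilloma, by 2.21 ± 0.43 in 12 of 13 mice (adjusted p = 0.000825), and stood 3.06 ± 0.28 above skin in SCC carcinoma in 8 of 8 mice, with no overlap (adjusted p = 0.000138). In spindle carcinoma it read 5.82, 6.82 and 11.57, where mouse 1949 was highest and the next mouse was at 7.87. The difference from papilloma, -1.66 ± 0.55, did not pass (7 of 9 mice lower, adjusted p = 0.052). It passed without mouse 1949 (-1.98, adjusted p = 0.0216) and without mouse 1815 (-2.09, adjusted p = 0.00754).

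Among WT mice Aldh1a3 was lower in spindle than in SCC carcinoma by 2.60 ± 0.70 (6 and 8 mice, adjusted p = 0.0375). This call was lost without any 1 of 8 mice (all but 1949), in batch 1 alone and with mouse as a fixed block (-2.59, adjusted p = 0.468), and without single mice the difference lay between -3.47 and -2.24. Metastases read 6.20, 9.67 and 11.52 (SCC) and 5.61, 6.72 and 8.06 (spindle). The difference between them was -1.99 ± 0.57 over all sites (adjusted p = 0.0945), and it passed in lymph nodes alone (-2.87, 14 mice, adjusted p = 0.00402) and without arrays that stood apart (-3.29, 13 mice, adjusted p = 0.000957). Neither change from carcinoma passed (SCC -0.42 ± 0.32, spindle -0.95 ± 0.67). In WT carcinomas, 9 of 9 keratinocyte markers were likewise lower in spindle than in SCC (median -3.04), and their part was not tested.

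Cyp26b1, which clears retinoic acid, had a lower mean in each of the 5 tumour groups than in skin. Its lowest, median and highest levels were 8.00, 8.78 and 9.99 in skin, 6.44, 7.73 and 8.52 in papilloma, 7.08, 7.48 and 8.13 in SCC carcinoma and 5.51, 6.25 and 7.57 in spindle carcinoma. In metastases they were 5.63, 6.78 and 6.95 (SCC) and 5.25, 5.93 and 6.15 (spindle). It fell by 1.24 ± 0.27 in papilloma, in 12 of 13 mice (adjusted p = 0.00201). From papilloma to SCC carcinoma the change was -0.17 ± 0.14 (adjusted p = 0.812), and to spindle carcinoma it fell by 1.08 ± 0.21 in 9 of 9 mice (adjusted p = 0.0102), a call lost without RegCA carcinomas.

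Spindle carcinoma was below skin in Cyp26b1 by 2.66 ± 0.21, or 6.33-fold, in 10 of 10 mice without overlap (adjusted p = 5.45e-06). SCC carcinoma was below skin by 1.47 ± 0.22 in 8 of 8 mice (adjusted p = 0.00133). The skins and SCC carcinomas of these 8 mice did not overlap. The skin of mouse 1706 (8.00), which had no SCC carcinoma, lay below the highest SCC carcinoma (8.13). In WT mice spindle was below SCC carcinoma by 1.14 ± 0.30 (adjusted p = 0.0348), a call lost without any 1 of mice 1383, 1456, 1508, 1815, 1984, 2022 or 2104, in batch 1 alone and with mouse as a fixed block (-0.98, adjusted p = 0.468). SCC metastasis was below SCC carcinoma by 0.92 ± 0.19 in 8 of 8 mice without overlap (adjusted p = 0.0284), a call lost without mouse 1456, 1984, 2022 or 2104, in batch 1 alone, in lymph nodes alone and without arrays that stood apart. In spindle metastasis the change was -0.63 ± 0.25, lower in 6 of 7 mice (adjusted p = 0.354). Spindle minus SCC metastasis was -0.58 ± 0.23 over all sites (adjusted p = 0.187), -0.87 in lymph nodes alone (adjusted p = 0.016) and -0.78 without arrays that stood apart (adjusted p = 0.0484).

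Hair follicle and sebocyte markers moved beside the Cyp26b1 falls against skin. In papilloma 7 of 10 hair follicle markers (median -3.07) and 7 of 7 sebocyte markers (median -3.10) fell. In SCC carcinoma 1 of 10 and 7 of 7 fell (medians -2.20 and -4.46), and in spindle carcinoma 9 of 10 and 7 of 7 fell (medians -4.18 and -4.49). The hair follicle mean by mouse ran from 4.58 to 11.66 in skin and from 4.71 to 7.38 in papilloma, and the part of either cell type in the falls was not tested.

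Overlap was counted over the mice paired in each comparison, not over all mice of a group. On that count, 4 of 9 members did not overlap between SCC carcinoma and skin. It was 1 of 9 between spindle carcinoma and skin and 1 of 9 between SCC metastasis and SCC carcinoma. Beside these stood 30.6%, 46.7% and 4.55% of all genes called. Over all 15 skins, Adh7, Crabp2 and Cyp26b1 did overlap with SCC carcinoma. Of all 18772 genes, 7.35%, 6.76% and 0.458% did not overlap in these comparisons.

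Rarg, the receptor, had the smallest SD between mice of the 9 members in skin and in each primary tumour group, at 0.20 to 0.32. It read 9.11, 9.83 and 10.21 in skin, 9.52, 9.79 and 10.15 in papilloma, 9.45, 9.75 and 10.38 in SCC carcinoma and 9.65, 10.08 and 10.53 in spindle carcinoma. The single call was a rise of 0.30 ± 0.08 from papilloma to spindle carcinoma, in 7 of 9 mice (adjusted p = 0.0217), lost without mouse 1407, 1509 or 1664, in batch 1 alone or without RegCA carcinomas. Its change was 0.07 ± 0.09 in papilloma (adjusted p = 0.559) and 0.02 ± 0.14 from papilloma to SCC carcinoma (adjusted p = 0.988). Metastases ranged from 8.77 to 10.29 (SCC) and from 8.48 to 10.48 (spindle), and the lowest single arrays were the spleen (7.54) and liver (7.70) of mouse 1815.

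**Figure D4:**
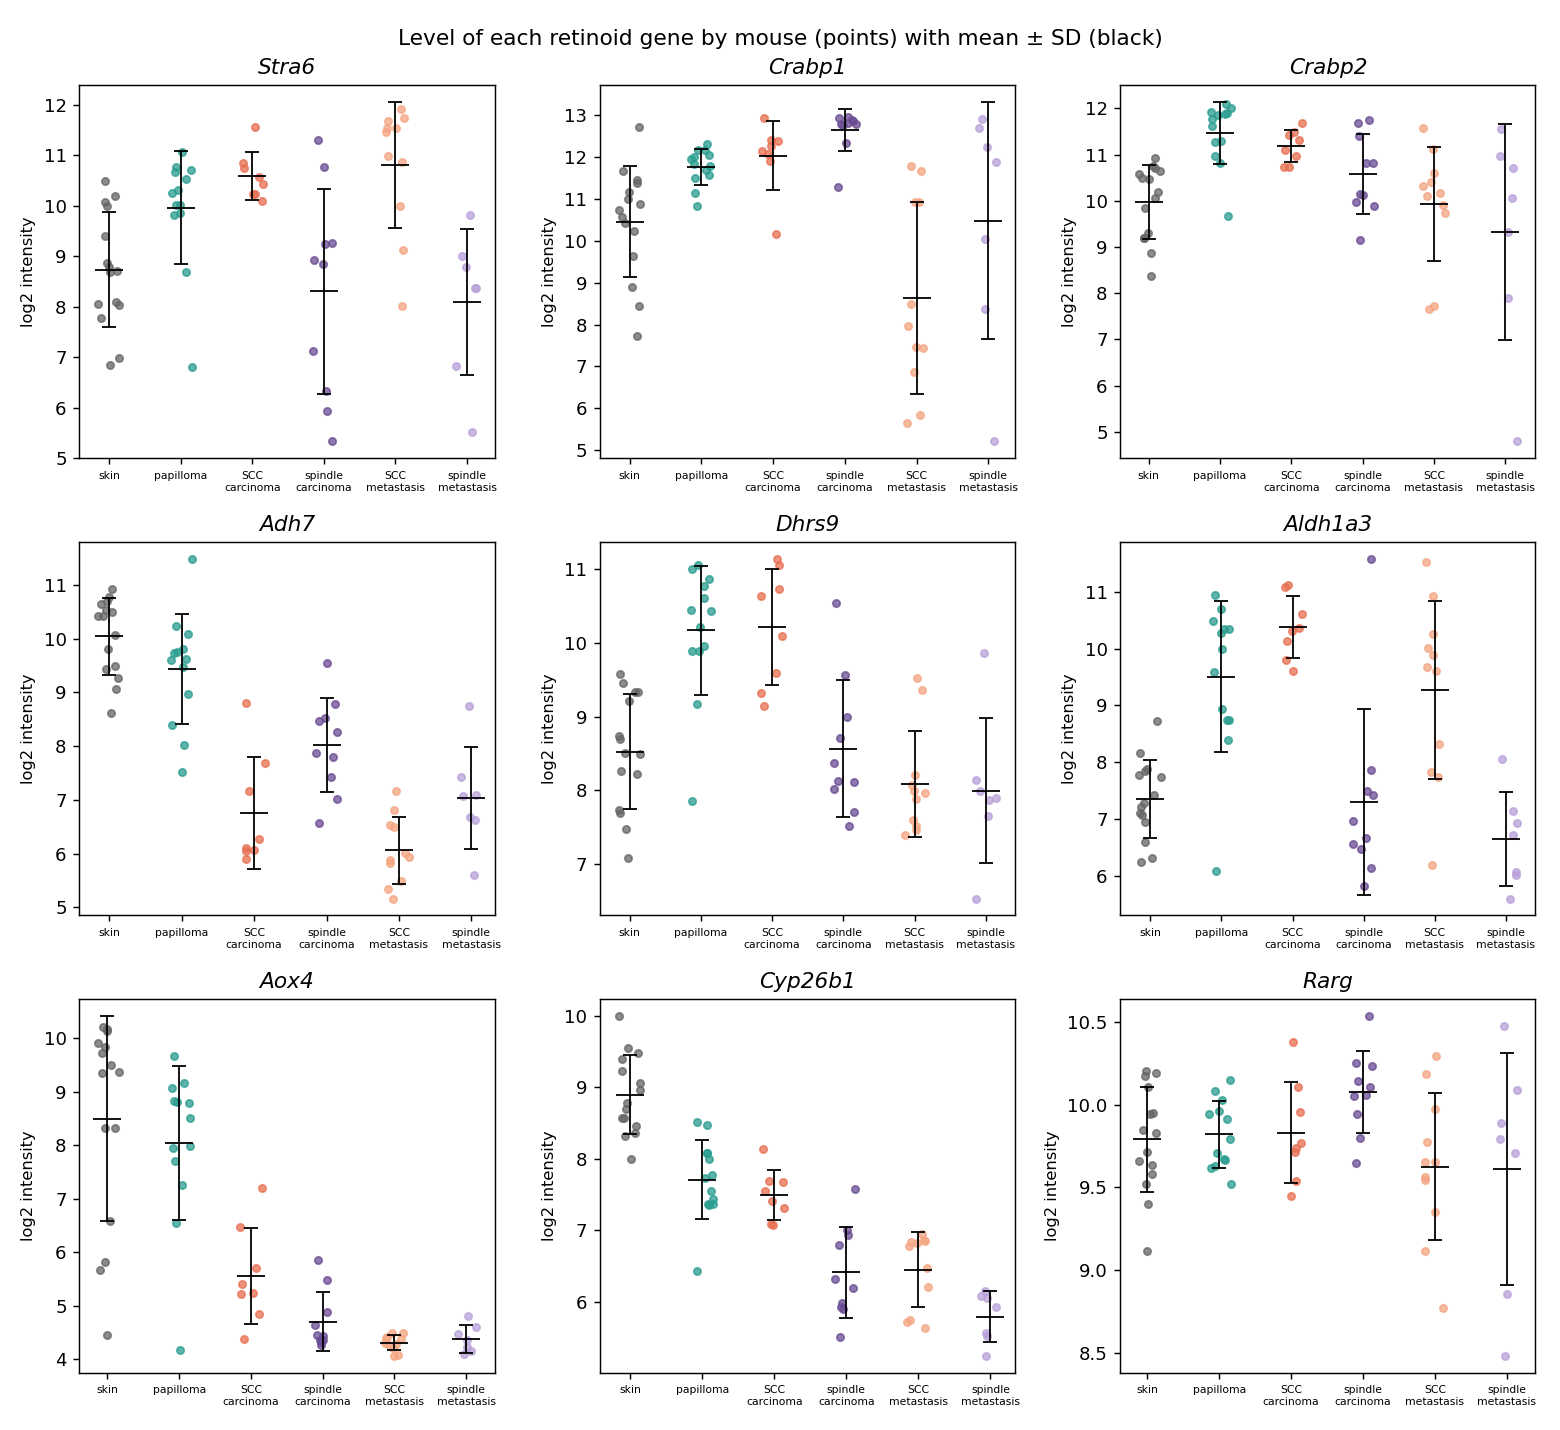
Log2 intensity (y axis, scaled for each gene) of the 9 members by tissue group (x axis); points are mouse means and black marks the group mean ± SD. Adh7, Aox4 and Cyp26b1 have their highest means in skin and lower means in carcinomas and metastases, Aldh1a3 and Dhrs9 are highest in papilloma and SCC carcinoma, and Crabp1 spreads from 5.21 to 12.92 in metastases.

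For Adh7 the group means were 10.05 ± 0.72 (SD, n = 15 mice) in skin, 9.44 ± 1.03 (n = 13) in papilloma, 8.03 ± 0.88 (n = 10) in spindle carcinoma, 7.04 ± 0.95 (n = 7) in spindle metastasis, 6.76 ± 1.04 (n = 8) in SCC carcinoma and 6.06 ± 0.63 (n = 11) in SCC metastasis. Every pair of neighbours in this order overlapped within their SDs. For Aox4 the means ran from 8.50 ± 1.92 in skin through 8.03 ± 1.44 in papilloma, 5.56 ± 0.90 in SCC carcinoma and 4.71 ± 0.55 in spindle carcinoma to 4.39 ± 0.26 and 4.31 ± 0.15 in spindle and SCC metastasis. Papilloma and SCC carcinoma were the only neighbours in that order that did not overlap within their SDs. Tumours of 1 mouse could differ as much as mice did. Crabp1 ranged by up to 6.98 among the SCC metastases of mouse 1706 and by up to 7.40 among the spindle metastases of mouse 1815. Aox4 ranged by up to 4.54 among the papillomas of mouse 1984.

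Genotype was tested in skin, papilloma and spindle carcinoma and, in tests added after the data were seen, in metastases, with batch in the model. None of the 9 members passed between HrasKO and WT skin (6 and 9 mice, 0.00533% of all genes called), papilloma (4 and 9 mice, 0.00533%) or spindle carcinoma (4 and 6 mice, 0%, with 626 genes at an unadjusted p under 0.05). Among skin, papilloma and spindle carcinoma, the widest intervals were those of Stra6 and Aldh1a3 in spindle carcinoma. There HrasKO minus WT was -0.25 (95% confidence interval -3.46 to 2.97) and -1.32 (-3.74 to 1.10). Aox4 differed by 1.13 ± 0.93 in skin and by 1.15 ± 0.79 in papilloma, higher in HrasKO, with adjusted p of 0.684 and 1.

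In SCC metastasis Stra6 was lower in HrasKO than in WT mice. The 3 HrasKO mice read 8.01, 9.11 and 9.996, and the 8 WT mice read 10.86 to 11.91 (median 11.54), without overlap. HrasKO minus WT was -2.61 ± 0.29 (adjusted p = 0.0346), the single call among the 9 members, where 0.154% of all genes passed and 4.53% did not overlap. Crabp2 also did not overlap, at 7.65, 7.73 and 9.75 in HrasKO and 9.90 to 11.59 in WT, but its difference of -2.35 ± 0.43 did not pass (adjusted p = 0.08). It passed in batch 1 alone (-2.83, 9 mice, adjusted p = 0.037) and without any 1 of mice 1456, 1664 or 1949. Aldh1a3 differed by -2.51 ± 0.72 (adjusted p = 0.205).

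The Stra6 call was lost without any 1 of mice 1383, 1616, 1706, 1984 or 2104, between -2.85 and -2.15, and in lymph nodes alone (-1.70, 8 mice, adjusted p = 0.93). Of the 6 HrasKO arrays, 5 had keratinocyte markers below every SCC carcinoma array, against 2 of 18 WT arrays, and these 5 stood apart, being closest to spindle tumours. The remaining HrasKO array, a lymph node of mouse 1616, had Stra6 at 11.62, within the 10.74 to 12.20 of the WT arrays. Without the arrays that stood apart, HrasKO minus WT was 0.10 (1 HrasKO and 6 WT mice, adjusted p = 0.958), with the lone mouse assumed to vary like the others. The median difference of the 9 keratinocyte markers was -2.86, none of them called, and their part in the Stra6 difference was not tested. In spindle metastasis (4 HrasKO and 3 WT mice) 0 members passed, where limma called 0% of all genes and 394 had an unadjusted p under 0.05. Intervals there were wide, with HrasKO minus WT at -2.29 (95% confidence interval -7.45 to 2.88) for Crabp1 and 0.02 (-4.69 to 4.73) for Crabp2.

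Of 50 other genes of the retinoid pathway, 47 were measured. In papilloma 9 rose and 16 fell against skin, and their median log2 change was -0.21 against 0.05 for all genes. Among the rises were Rbp2 (1.93 ± 0.41), a cellular retinol-binding protein, Ppard (1.12 ± 0.16), a nuclear receptor, and Cyp2s1 (0.97 ± 0.34), a cytochrome P450. The largest falls were Awat2 (-3.52 ± 0.31), which esterifies retinol and wax alcohols, the retinaldehyde dehydrogenase Aldh1a1 (-2.90 ± 0.29) and the alcohol dehydrogenase Adh1 (-2.63 ± 0.36). All 7 measured sebocyte markers fell in the same comparison (median -3.10; 4.54 to 8.70 in papilloma and 7.61 to 10.32 in skin), and their part in these falls was not tested.

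From papilloma to SCC carcinoma 0 of the 47 rose and 1 fell, Rdh1 (-1.75 ± 0.25, adjusted p = 0.0411). From papilloma to spindle carcinoma 3 rose and 15 fell, with a median of -0.13. The rises were Aox1 (1.19 ± 0.24), an aldehyde oxidase like Aox4, the retinol dehydrogenase Rdh10 (1.02 ± 0.21) and the receptor Rara (0.69 ± 0.15). The largest falls were the epidermal retinol dehydrogenases Sdr16c6 (-3.67 ± 0.55) and Sdr16c5 (-3.66 ± 0.52) and Rdh12 (-3.14 ± 0.50), which reduces retinaldehyde. Aox1 and Aox4 thus moved in opposite directions in the same mice. In this comparison 4 of 7 macrophage markers also rose (median 1.20), as did 1 of 8 fibroblast markers, Pdgfra (1.98 ± 0.63, adjusted p = 0.0471), and their part in the 3 rises was not tested. Between WT spindle and SCC carcinomas, Aox1 (1.39 ± 0.36) and Rara (0.64 ± 0.18) were higher in spindle and 6 genes were lower, led by Rbp2 (-3.05 ± 0.56), Sdr16c6 (-2.87 ± 0.49) and Cyp2s1 (-2.72 ± 0.65).

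Against skin, 6 rose and 20 fell in SCC carcinoma, and 6 rose and 21 fell in spindle carcinoma, with medians of -0.31 and -0.36. In SCC carcinoma Rbp2 (2.24 ± 0.43), Cyp2s1 (1.50 ± 0.30) and Ppard (1.33 ± 0.15) led the rises, and Awat2 (-4.07 ± 0.37), Adh1 (-3.53 ± 0.38) and Aldh1a1 (-3.50 ± 0.58) the falls. In spindle carcinoma Rdh10 (1.45 ± 0.12) led the rises, beside rises of 7 of 7 macrophage markers (median 1.18) whose part was not tested, and Sdr16c6 (-5.13 ± 0.44) led the falls. In SCC metastasis 3 rose and 7 fell against SCC carcinoma: the receptor Rarb (2.08 ± 0.38), Dhrs3 (1.51 ± 0.24), which returns retinaldehyde to retinol, and Aox1 (1.08 ± 0.25) rose, and Sdr16c6 (-3.72 ± 0.28), Sdr16c5 (-2.60 ± 0.30) and Rdh12 (-2.43 ± 0.30) led the falls. No other retinoid gene passed in spindle metastasis against spindle carcinoma, between spindle and SCC metastasis, between lung and lymph node or between genotypes.

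Genes known to respond to retinoids, or to the differentiation that retinoids alter, were listed apart, 14 of 16 measured. In papilloma 5 rose and 3 fell against skin. Krt13 (5.42 ± 0.54) and Krt4 (5.22 ± 0.55), keratins of internal epithelia that retinoids induce, led the rises. The 3 falls were those of Flg2 (-3.30 ± 0.37), a cornified layer protein, Rarres1 (-2.18 ± 0.27) and the receptor Rarb (-0.55 ± 0.18). In spindle carcinoma 1 rose against papilloma, the transglutaminase Tgm2 (1.49 ± 0.46), and 7 fell, among them Krt1 (-4.51 ± 0.92), Krt13 (-4.43 ± 0.88) and Lor (-4.31 ± 0.64). In SCC metastasis Rarb and Dhrs3, which belong to both lists, rose against SCC carcinoma, and Krt1 (-4.36 ± 0.61), Lor (-4.24 ± 0.73) and Krt10 (-3.89 ± 0.47) fell. From papilloma to SCC carcinoma none of the 14 passed, with a median of -0.35.

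Likeness across the 64 mouse-by-group means of the 6 groups is given as a description, since the points share mice and groups. Adh7 was most like Tlcd1 (Pearson r = 0.86), Cyp2b19 (0.85) and Capns2 (0.85). Aox4 was most like Aadacl2fm1 (0.95), Aadac (0.94) and Sdr16c5 (0.94), Stra6 like Galnt3 (0.79), Abhd17c (0.78) and Hunk (0.77), and Crabp1 less closely like Tenm4 (0.75), Lmna (0.75) and Gas1 (0.73). Over the 49 tumour means alone only 3 of these 12 stayed among the closest 3, and Adh7 was then most like the melanocyte genes Dct (0.82) and Tyrp1 (0.81). The mean of 5 melanocyte markers was 6.20 in papilloma, 4.67 in SCC carcinoma and 4.44 in spindle carcinoma, and their part in the level of Adh7 was not tested. Within the members, the closest pairs were Adh7 and Aox4 (0.83), Aox4 and Cyp26b1 (0.72), and Stra6 and Aldh1a3 (0.71).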

How the data were processed

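RNA of 112 skin, tumour and metastasis samples was hybridised to arrays. The deposited values are log2 intensities that the authors made with robust multi-array averaging (RMA), per the submitters' processing notes. Its version and any batch correction: not given in the sources used here. Array medians lay between 5.89 and 6.36, and precision is limited by how many mice each comparison had.

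Of 28204 probe sets, 21141 carried 1 symbol in the platform annotation, while 1881 with several and 5182 unnamed ones were not used. Keeping each gene's probe set of highest mean left 18772 genes. Levels were averaged by mouse within a group. The model was limma 3.58.1 (R 4.3.3; lmFit, then eBayes), two-sided, and p-values were adjusted over all genes by Benjamini-Hochberg. Groups sampled in the same mice were paired by the mouse number in the labels, entered as a fixed block. Spindle against SCC used a random block (duplicateCorrelation), with genotype added for metastases, and genotype tests had batch as covariate (those in metastases were added after seeing the data). Fits were tested on simulated data with 200 changed genes.

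The 9 members, the gene and marker lists and the tests were chosen with earlier results of these data known. Named genes were all members, a selection from the 3 strongest rises and falls of the other retinoid genes (higher group's mean at 6 or above) and the 3 genes most like Adh7, Aox4, Crabp1 and Stra6. Retinoid-responsive and marker genes were named after their values were seen. Alternatives averaged probe sets, dropped genes with low values (fewer than 8 arrays above the median), used trended robust eBayes, normalized again by quantiles, changed the block or covariate, or kept batch 1 or lymph nodes alone. Others left out RegCA carcinomas, each mouse, or arrays that stood apart, meaning that their mean correlation with other mice's arrays was highest for another of 3 classes (normal, squamous, spindle). Promoter windows are RefSeq's. Mixed tumours entered no comparison.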

Additional observations from a re-analysis of the deposited data

Results flagged for a closer look

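Of 27 groups of 4 to 10 mice tested, 3 held a mouse far from the others, and chance flags about 1 group in 20. The SCC carcinoma of mouse 1984 had Crabp1 at 10.15, the lowest of 8 mice, with the nearest at 11.89; its fibroblast marker mean, 7.83, was also the lowest of the SCC carcinomas. The spindle carcinoma of mouse 1949 had Crabp1 at 11.29, the lowest of 10 mice, with the nearest at 12.33. The same tumour had Aldh1a3 at 11.57, the highest of 10 mice, with the nearest at 7.87. That array, titled RegCA, correlated best with squamous tumours, and its keratinocyte marker mean was 11.64. Without this mouse the Aldh1a3 difference between spindle carcinoma and papilloma was -1.98 and passed (limma, adjusted p = 0.0216).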

How the results depend on the processing

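Over 120 alternatives to the counts of called members, 16 moved a count by more than 1.5 times. The single called value that reversed its direction was Stra6 in HrasKO against WT SCC metastasis, at 0.10 without arrays that stood apart, where 1 HrasKO mouse and 0 called genes remained. In batch 1 alone 0 members passed between SCC carcinoma and papilloma (0 genes), 3 between spindle carcinoma and papilloma (2278 genes), 0 between WT spindle and SCC carcinoma (657 genes) and 1 between SCC metastasis and SCC carcinoma (202 genes). Each of these fits left out only mouse 1456 or only mouse 1664, the 2 mice of batch 2. Without RegCA carcinomas 0 members and 0 genes passed between spindle carcinoma and papilloma (5 of 9 mice left), and 4 members (Stra6 and Dhrs9 added) between WT spindle and SCC carcinoma. Without arrays that stood apart 4 members passed between WT spindle and SCC carcinoma (3679 genes), 1 between SCC metastasis and SCC carcinoma (78 genes) and 3 between spindle and SCC metastasis (1585 genes). Genes called then rose to 424 between SCC carcinoma and papilloma (Crabp2 added) and to 7912 between spindle carcinoma and papilloma (Crabp2 and Aldh1a3 added). In lymph nodes alone 0 members passed between SCC metastasis and SCC carcinoma (60 genes) and 5 between spindle and SCC metastasis (2213 genes), and with the filter on low values 1 passed there (372 genes). With quantile normalization repeated 192 genes passed in that comparison, and 0 with trend and robust eBayes, in batch 1 alone, or with no or a fixed replicate block. With mouse as fixed replicate block 0 members and 0 genes passed between WT spindle and SCC carcinoma. Dropping the block moved no other member count by more than 1.5 times: 6 members then passed in papilloma against skin. Between HrasKO and WT SCC metastasis 2 members (Crabp2 added) passed in batch 1 alone (45 genes) and 0 in lymph nodes alone (1 gene) or without arrays that stood apart (0 genes). Of the 12 most-like genes 3 stayed among tumours alone.

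Leaving out each mouse gave 0 to 2 members between SCC carcinoma and papilloma, 3 to 8 between spindle carcinoma and papilloma, 0 to 5 between WT spindle and SCC carcinoma, 1 to 5 between SCC metastasis and SCC carcinoma, 0 to 1 between spindle and SCC metastasis, 5 to 6 in papilloma, 7 to 8 in SCC and 4 to 6 in spindle carcinoma against skin, and 0 to 3 between HrasKO and WT SCC metastasis. In WT spindle against SCC carcinoma without RegCA, and in spindle against SCC metastasis without arrays that stood apart, only 1 mouse had both groups, so the block was dropped. No mouse had both spindle and SCC metastases in lymph nodes, so the comparison of these in lymph nodes alone was between different mice. Of called member values, 69 lost and 240 kept the call when a mouse was left out, and 32 lost, 1 reversed and 233 kept it under the other alternatives. Several metastases have few arrays per site, which limits the site comparisons.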

Other observations

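Tumours of mixed histology entered no comparison. The 3 mixed carcinomas came from mice 1616, 1706 and 1949. Crabp1 was uniformly high in them, at 12.73, 12.88 and 12.80, while the keratinocyte marker mean was 6.11, 11.40 and 9.75 in the same order. Stra6 ranged from 6.60 in mouse 1616 to 11.53 in mouse 1706, Aldh1a3 from 6.98 in mouse 1949 to 10.69 in mouse 1706, and Aox4 from 4.21 in mouse 1706 to 6.70 in mouse 1949. The single mixed metastasis, in the lung of mouse 1508, combined Crabp1 at 12.93 with Crabp2 at 6.79, Stra6 at 5.56 and Rarg at 9.04.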
